A study of Homo sapiens with 6 samples.

Results

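Pseudogenes of the large-subunit ribosomal proteins were examined in HCT116, a human cell line established from a colorectal carcinoma. Members were genes with a pseudogene biotype in GENCODE 44, a symbol beginning with RPL and ending in P and a number, and a mean of at least 1 FPKM (fragments relative to the transcript's length and the library's mapped reads) over 6 libraries. Of 1105 such pseudogenes annotated, 1104 were listed in the deposited tables, 484 were above 0 in some library, and 112 met the level. The other 992 had a mean under 1 FPKM, and 620 of them were listed at 0 in all 6 libraries. Poly(A)-selected RNA had been sequenced from cells carrying the control lentivirus LV-NC (3 libraries) and from cells carrying LV-SNORA28, a lentivirus that overexpresses the small nucleolar RNA SNORA28 (3 libraries). Both groups had therefore been infected, both came from a single cell line, and nothing in the labels says that libraries of a group came from separate cultures, so p-values measure the spread between these libraries, which may be technical. The comparison asks how the copies, and the parent gene each was named after, differed between the 2 groups.

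Most of these loci are processed pseudogenes. Such a copy arises when a messenger RNA is reverse transcribed and inserted elsewhere in the genome, so that it has no introns and usually no promoter of its own. Genes of ribosomal proteins, whose messages are abundant in every cell, have left more such copies in the human genome than almost any other family. Because a copy can match the message of its parent over long stretches, short reads of the parent can be placed on it, and the level of a copy is then not separate from that of the parent. How reads with several matches were treated is not given in the sources used here, and every level of a copy below is uncertain in this sense.

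The copies of RPL41, the smallest protein of the ribosome, show how close a copy can be. The letters below, from GRCh38 and GENCODE 44, are the coding sequence of RPL41 and the annotated bases of RPL41P1 (GRCh38 chr20:21755270-21755350, plus strand) and RPL41P5 (chr12:93083598-93083675, minus strand), written 5′ to 3′ as RNA-sense DNA. Capitals mark bases that differ from the coding sequence of the parent in this and the following sets, and none occurs here.
RPL41: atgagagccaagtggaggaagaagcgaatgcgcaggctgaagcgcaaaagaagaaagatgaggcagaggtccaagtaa
RPL41P1: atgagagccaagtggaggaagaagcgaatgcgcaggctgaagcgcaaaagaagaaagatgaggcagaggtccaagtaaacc
RPL41P5: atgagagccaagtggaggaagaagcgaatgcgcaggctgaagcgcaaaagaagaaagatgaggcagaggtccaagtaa
Over the 78 coding bases, both copies held 0 substitutions, and all of their 50-base windows occurred letter for letter in transcripts of RPL41.

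RPL39, a small protein that lines the tunnel through which the new peptide leaves the ribosome, had 2 copies among the members. RPL39P3 (chr6:73373108-73373263, minus strand) and RPL39P15 (chr2:70253855-70254010, minus strand) are shown because they differ from each other by few bases and had different values.
RPL39: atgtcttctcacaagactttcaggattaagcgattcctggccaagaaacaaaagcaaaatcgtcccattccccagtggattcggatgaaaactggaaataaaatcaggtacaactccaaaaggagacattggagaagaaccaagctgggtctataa
RPL39P3: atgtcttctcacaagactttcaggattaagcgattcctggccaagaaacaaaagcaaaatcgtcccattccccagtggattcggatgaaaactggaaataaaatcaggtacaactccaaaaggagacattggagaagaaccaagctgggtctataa
RPL39P15: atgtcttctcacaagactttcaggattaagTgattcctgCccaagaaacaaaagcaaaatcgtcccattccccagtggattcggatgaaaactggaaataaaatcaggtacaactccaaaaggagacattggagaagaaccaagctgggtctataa
RPL39P3 was identical to the 156 coding bases. RPL39P15 carried C31T and G40C, counted from 1 at the A of the start codon with the base of RPL39 first, and the first of these made codon 11 of 52 a stop codon.

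RPL37AP1 (chr20:44466564-44466842, minus strand), the only member named after RPL37A, is shown as a copy below the median identity, at 95.7% against 97.0%. Of its 50-base windows, 2.61% occurred in transcripts of RPL37A, against a median of 29.2% over the members.
RPL37A: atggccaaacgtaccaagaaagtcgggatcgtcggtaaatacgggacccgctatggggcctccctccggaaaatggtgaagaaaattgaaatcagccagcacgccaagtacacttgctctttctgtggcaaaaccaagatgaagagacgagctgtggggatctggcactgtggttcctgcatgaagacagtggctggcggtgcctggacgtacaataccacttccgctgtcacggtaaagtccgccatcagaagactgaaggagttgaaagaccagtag
RPL37AP1: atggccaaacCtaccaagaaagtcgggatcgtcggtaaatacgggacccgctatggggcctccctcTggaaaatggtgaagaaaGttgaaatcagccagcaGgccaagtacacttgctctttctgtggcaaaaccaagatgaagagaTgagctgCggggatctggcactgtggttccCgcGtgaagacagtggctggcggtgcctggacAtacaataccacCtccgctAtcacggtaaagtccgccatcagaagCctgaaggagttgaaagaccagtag
It differed from RPL37A at 12 of 279 bases, and C148T made codon 50 a stop codon where the parent stops at codon 93.

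RPL21 had 12 copies, more than any other parent. The opening bases of RPL21 and of 3 copies are shown as a series from identical to more diverged: RPL21P16 (chr10:120354701-120355183, minus strand), RPL21P97 (chr11:9660438-9660920, plus strand) and RPL21P51 (chr4:165012366-165012845, minus strand).
RPL21: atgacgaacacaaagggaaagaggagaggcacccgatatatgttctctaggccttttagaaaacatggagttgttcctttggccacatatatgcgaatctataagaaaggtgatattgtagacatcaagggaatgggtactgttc
RPL21P16: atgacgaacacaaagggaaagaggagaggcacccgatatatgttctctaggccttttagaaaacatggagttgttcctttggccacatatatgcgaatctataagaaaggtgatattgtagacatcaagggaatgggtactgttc
RPL21P97: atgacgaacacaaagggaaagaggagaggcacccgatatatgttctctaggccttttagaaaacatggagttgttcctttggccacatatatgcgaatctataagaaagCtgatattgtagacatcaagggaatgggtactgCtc
RPL21P51: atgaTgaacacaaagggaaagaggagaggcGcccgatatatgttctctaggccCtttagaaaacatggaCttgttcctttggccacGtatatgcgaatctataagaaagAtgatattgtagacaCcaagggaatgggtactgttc
Over all aligned coding bases, RPL21P16 had 0 substitutions in 483, RPL21P97 had 9 in 483 and RPL21P51 had 14 in 480. The reading frame ran to the stop of the parent, codon 161, in RPL21P16 and RPL21P97 and ended at codon 76 in RPL21P51.

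Across the 112 members, identity with the message of the parent had a median of 97.0% and ran from 71.5% to 100%. It was counted over the aligned bases only, which were 25.0% to 100% of a copy (median 100%). At least 99% identity was found for 23 members, at least 95% for 81, and under 90% for 12. All 50-base windows occurred in transcripts of the parent for 5 members, at least 50% of them for 35, and none for 14. By biotype, 99 members were processed pseudogenes, 10 were transcribed processed, 2 were transcribed unprocessed and 1 was unprocessed, and 105 had a single exon. The members traced to 35 parents, of which RPL21 with 12, RPL7A with 10 and RPL23A with 9 had the most. RPL7A is a protein of the 60S subunit, and RPL23A sits beside the exit of the peptide tunnel.

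The members were chosen by their mean level over both groups, so levels are given as a description. They ran from 1.08 to 430 FPKM with a median of 6.64, and 14 members had at least 100 FPKM, 40 had 10 to under 100, and 58 had 1 to under 10. Just inside the minimum were RPL12P8 and RPL7AP50, both at 1.08 FPKM, and RPL21P128 at 1.09. Just outside it were RPL28P2 at 0.998, RPL21P19 at 0.982 and RPL36AP7 at 0.978 FPKM. Both group means were at least 1 FPKM for 101 members, only the LV-NC mean for 9, and only the LV-SNORA28 mean for 2.

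The libraries carried the labelled difference, since SNORA28 reached at most 0.92 FPKM with LV-NC and at least 13.66 with LV-SNORA28. The epithelial markers EPCAM, CDH1, KRT8, KRT18, KRT19 and CLDN4 were present in all libraries, whereas VIL1 and LGALS4 were at most 0.1 FPKM. Of 10 markers of blood, fibroblasts, endothelium and hepatocytes, COL1A1 had 3.16 to 4.46 FPKM and the other 9 were at most 0.22. Read depth was not given, so no counting interval is attached to any value. Of all FPKM in a library, 42.7% to 47.7% belonged to mitochondrially encoded genes with LV-NC and 35.9% to 38.3% with LV-SNORA28, a difference with an exact two-sided permutation p of 0.1, the smallest that 3 against 3 libraries allow.

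Decreases outnumbered increases among the large-subunit pseudogenes. Of the 112 members, 34 fell, 2 rose and 76 were not called at an adjusted p below 0.05, in limma on log2(FPKM + 1) with Benjamini-Hochberg adjustment over all 12076 genes that averaged 1 FPKM or more. The members called lower were 30.4% of the members, against 2.10% of all genes tested, and those called higher were 1.79%, against 6.81%. The higher share of all genes depended on the scaling. It was 3.73% under quantile normalization, 3.04% with the GC trend and 4.12% with the length trend of each library removed. The lower share was 3.11%, 2.79% and 3.70% in these settings. The median log2 fold change (LV-SNORA28 minus LV-NC, on the log2(FPKM + 1) scale, where changes of low genes are understated) was -0.32 for the members and 0.0851 for all genes, whose median was -0.00127, -0.00409 and -0.00177 under the same 3 settings. The fold change was below 0 for 91 members and above 0 for 21. In a bulk library, fewer cells and less RNA per cell cannot be told apart.

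The 3 LV-SNORA28 libraries lay below all 3 LV-NC libraries for 55 members and above them for 6, against 8.16% and 27.0% of all genes tested. At the threshold of the study, a fold change above 1.5 and an unadjusted p below 0.05, 27 members were lower and 4 higher, against 1.22% and 2.58% of all genes. The number of calls depended on each library. Without LV-NC replicate 1, 2 or 3, 16, 14 and 21 members were lower, against 1.13%, 0.927% and 1.00% of all genes. Without LV-SNORA28 replicate 1, 2 or 3, 19, 12 and 10 members were lower, against 0.944%, 0.729% and 0.745% of all genes. The lowest of these, 10 members or 8.93%, stood beside 0.745% of all genes in the same fit. With FPKM rescaled to the same nuclear sum in every library, which takes out the mitochondrial difference, 34 members were lower and 2 higher. Of all genes in that fit, 2.19% were lower and 5.09% higher. With a mean of at least 1 FPKM required in each group, 32 of 101 members were lower and 1 was higher. All genes tested, without that requirement, had 2.10% lower and 6.81% higher.

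**Figure D1:**
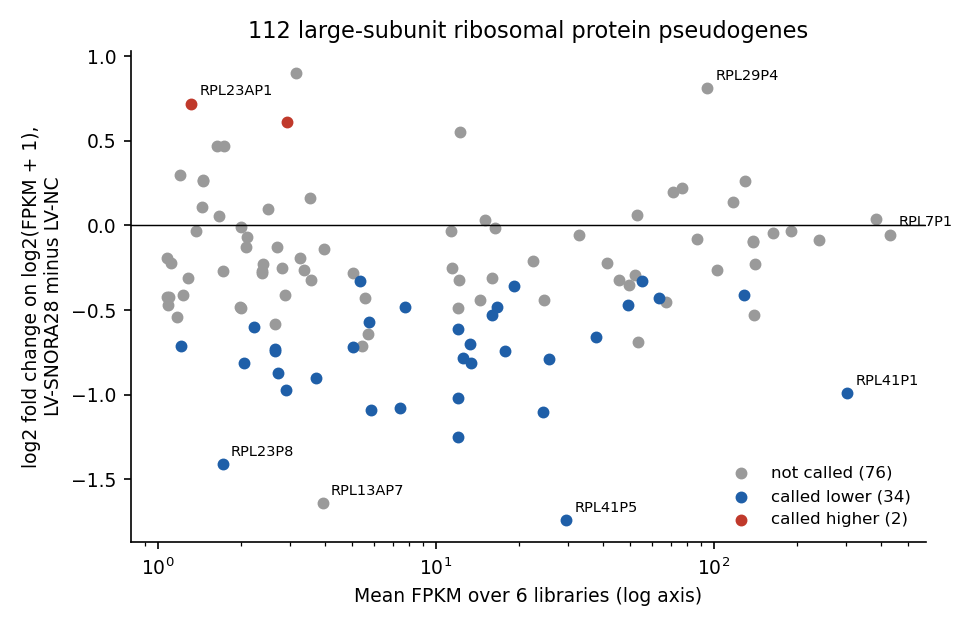
Change of the 112 members (y axis, log2 fold change on log2(FPKM + 1), LV-SNORA28 minus LV-NC) against their mean level over 6 libraries (x axis, FPKM, log axis). Each point is a pseudogene; the 34 called lower lie between 1.21 and 302 FPKM, and the 2 called higher lie under 3 FPKM.

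The 34 members that fell came from 20 of the 35 parents, had a median log2 fold change of -0.73 and ranged from -1.74 to -0.33. Their ratio of group means (LV-SNORA28 over LV-NC) ran from 0.179 to 0.790, and in all 34 the groups did not overlap. The call held without each of the 6 libraries in turn for 7 of them, RPL41P1, RPL41P2, RPL7AP30, RPL21P93, RPL21P97, RPL23AP74 and RPL7P19. It was lost whichever library was left out for 4, RPLP0P9, RPL4P4, RPL4P5 and RPL13AP20. Of the 26 parents with more than 1 copy among the members, 11 had no copy above 0.

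The copies of RPL41 fell together. RPL41P1 and RPL41P5 are annotated with 81 and 78 bases, shorter than the reads the paper describes, and RPL41P2 with 409. How FPKM was computed for loci shorter than a read is not given in the sources used here, so the values of RPL41P1 and RPL41P5 are uncertain in this way too. RPL41P1 had 446.6, 370.9 and 388.35 FPKM in LV-NC and 222.46, 215.35 and 168.46 in LV-SNORA28. Its LV-SNORA28 mean was 0.503 of its LV-NC mean, with a log2 fold change of -0.99 (SE 0.13, adjusted p = 0.0102 in limma). RPL41P2 had 19.13, 19.77 and 13.11 FPKM in LV-NC and 6.38, 6.08 and 7.4 in LV-SNORA28, a log2 fold change of -1.25 (SE 0.16, adjusted p = 0.0102). RPL41P5 had 32.85, 78.01 and 29.84 FPKM in LV-NC and 11.16, 13 and 12.1 in LV-SNORA28, a log2 fold change of -1.74 (SE 0.34, adjusted p = 0.0315). LV-NC replicate 2 stood far above the other libraries for RPL41P5, and without it the log2 fold change was -1.31. The adjusted p of RPL41P5 was 0.0537 without LV-NC replicate 1 and 0.0893, 0.0908 and 0.102 without LV-SNORA28 replicate 1, 2 and 3. With all 6 libraries it was 0.0926 without a filter, 0.0509 with a replicate block and 0.0501 with the length trend removed. The parent RPL41 had 1045.21, 951.22 and 908.49 FPKM in LV-NC and 742.28, 844.84 and 778.17 in LV-SNORA28, groups that did not overlap, with a log2 fold change of -0.30 (SE 0.0815, adjusted p = 0.0727).

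The 2 copies of RPL39 had different values. RPL39P15 had 35.69, 28.43 and 36.46 FPKM in LV-NC and 18.73, 13.91 and 13.08 in LV-SNORA28, and it fell by 1.10 on the log2 scale (SE 0.15, adjusted p = 0.0127). Without LV-SNORA28 replicate 2 its adjusted p was 0.0534. The identical copy RPL39P3 had 93.33, 81.98 and 93.46 FPKM in LV-NC and 75.73, 94.81 and 83.91 in LV-SNORA28, overlapping groups with a log2 fold change of -0.0814 (SE 0.0991, adjusted p = 0.637). The parent RPL39 had 113.68, 117.42 and 119.02 FPKM in LV-NC and 125.29, 126.41 and 120.69 in LV-SNORA28, a log2 fold change of 0.0882 (adjusted p = 0.323). The difference between the 2 copies was not tested.

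RPL23P8 is a copy of RPL23, a protein on the face of the large subunit that meets the small subunit. It had 3.04, 2.78 and 2.88 FPKM in LV-NC and 0.35, 1.08 and 0.13 in LV-SNORA28, a log2 fold change of -1.41 (SE 0.22, adjusted p = 0.0166) that was -2.60 with a pseudocount of 0.1. RPL23P8 is one of the 9 members that reached 1 FPKM only through the LV-NC mean, so a lower LV-SNORA28 value was built into its choice, and its decrease is a description. Its adjusted p was 0.0510, 0.0546 and 0.0557 without LV-NC replicate 2, LV-NC replicate 3 or LV-SNORA28 replicate 1. RPL7P19, one of 6 copies of RPL7, had 10.42, 7.71 and 6.93 FPKM in LV-NC and 3.22, 3.18 and 3.68 in LV-SNORA28, a log2 fold change of -1.09 (SE 0.14, adjusted p = 0.0105). RPL10P6 is a copy of RPL10, which joins the large subunit late in its assembly. It had 4.09, 3.18 and 4.07 FPKM in LV-NC and 2.14, 1.14 and 1.64 in LV-SNORA28, a log2 fold change of -0.87 (SE 0.16, adjusted p = 0.0260). The call of RPL10P6 was lost without LV-NC replicate 1 or 3 or LV-SNORA28 replicate 2 or 3, with adjusted p-values of 0.0680, 0.0777, 0.0658 and 0.0857.

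RPL37AP1 had 48.44, 48.89 and 41.45 FPKM in LV-NC and 24.18, 33.78 and 29.09 in LV-SNORA28, groups that did not overlap. It fell by 0.66 on the log2 scale (SE 0.13, adjusted p = 0.0308), a call that held only when LV-SNORA28 replicate 2 was the library left out (adjusted p up to 0.0984 otherwise). Both copies of RPL4 and both copies of RPLP0, the protein at the base of the ribosomal stalk, also fell, by 0.33 to 0.57 on the log2 scale, although 3 of these 4 calls were among those lost without any 1 library. The fourth, RPLP0P6, kept its call without LV-SNORA28 replicate 1 and had an adjusted p of up to 0.123 without the others. RPL37AP1, RPL14P1 and the copies of RPL4 and RPLP0 were chosen for description after their values were seen.

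**Figure D2:**
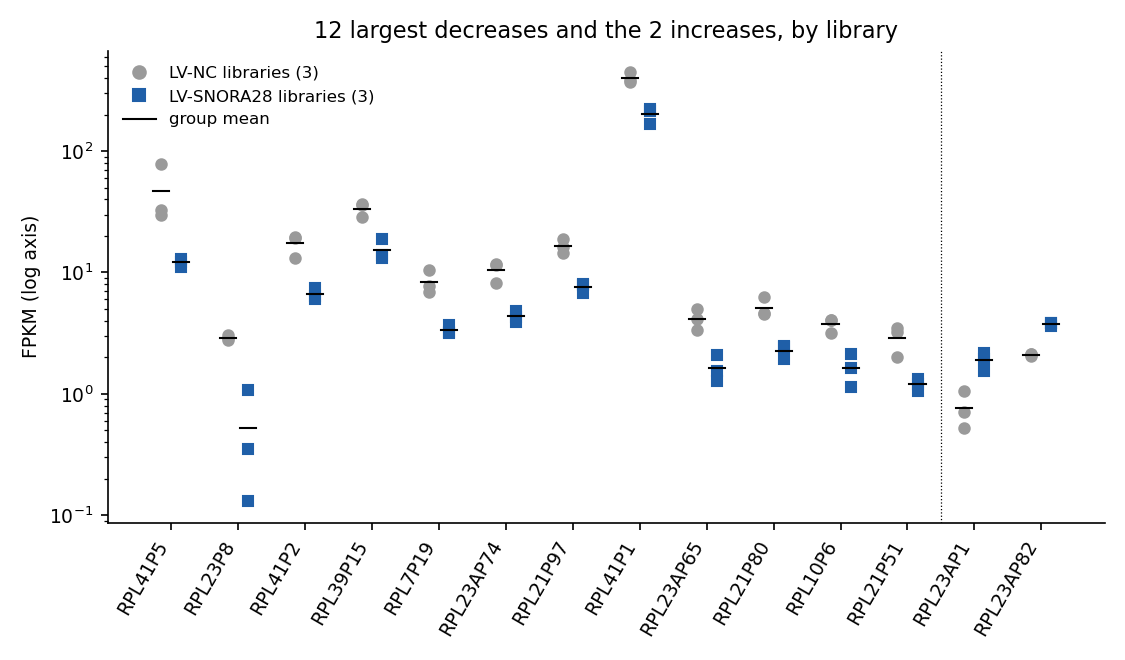
FPKM (y axis, log axis) in each of 3 LV-NC libraries (circles) and 3 LV-SNORA28 libraries (squares) for the 12 called members with the largest decrease and, right of the dotted line, the 2 called higher; black bars are group means. In every one of the 14 the groups do not overlap, and RPL41P5 has 1 LV-NC library, at 78.01 FPKM, above the other 2.

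Of the 12 copies of RPL21, 6 fell and none rose, with fold changes from -1.02 to 0.0297 and a median of -0.63. RPL21P97 had 14.39, 16.35 and 18.75 FPKM in LV-NC and 7.87, 8.07 and 6.81 in LV-SNORA28, with a log2 fold change of -1.02 (SE 0.11, adjusted p = 0.00634). RPL21P80 had 6.29, 4.51 and 4.6 FPKM in LV-NC and 2.47, 2.42 and 1.93 in LV-SNORA28, with a log2 fold change of -0.90 (adjusted p = 0.0154). RPL21P51 had 3.22, 3.47 and 2.03 FPKM in LV-NC and 1.33, 1.05 and 1.21 in LV-SNORA28, with a log2 fold change of -0.81 (adjusted p = 0.0305). RPL21P53, RPL21P93 and RPL21P28 fell by 0.79, 0.70 and 0.61 on the log2 scale. RPL21P53 lost its call without LV-NC replicate 3 or any LV-SNORA28 library (adjusted p up to 0.0899) and RPL21P28 without any library but LV-SNORA28 replicate 3 (up to 0.0995). The 2 copies with the highest level did not pass the test. RPL21P16, which is identical to the parent, had 118.06, 165.28 and 144.04 FPKM in LV-NC and 117.4, 135.98 and 146.15 in LV-SNORA28 (log2 fold change -0.0889, adjusted p = 0.721). RPL21P75 had 103.08 to 122.42 FPKM in LV-NC and 80.15 to 106.82 in LV-SNORA28 (-0.26, adjusted p = 0.216). RPL21 itself had 295.06, 262.44 and 256.43 FPKM in LV-NC and 256.71, 283.52 and 255.8 in LV-SNORA28 (-0.0309, adjusted p = 0.835). The call of RPL21P80 was lost without LV-SNORA28 replicate 2 or 3, with adjusted p-values of 0.0533 and 0.0565, and that of RPL21P51 without any library but LV-NC replicate 3, with adjusted p-values up to 0.102.

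**Figure D3:**
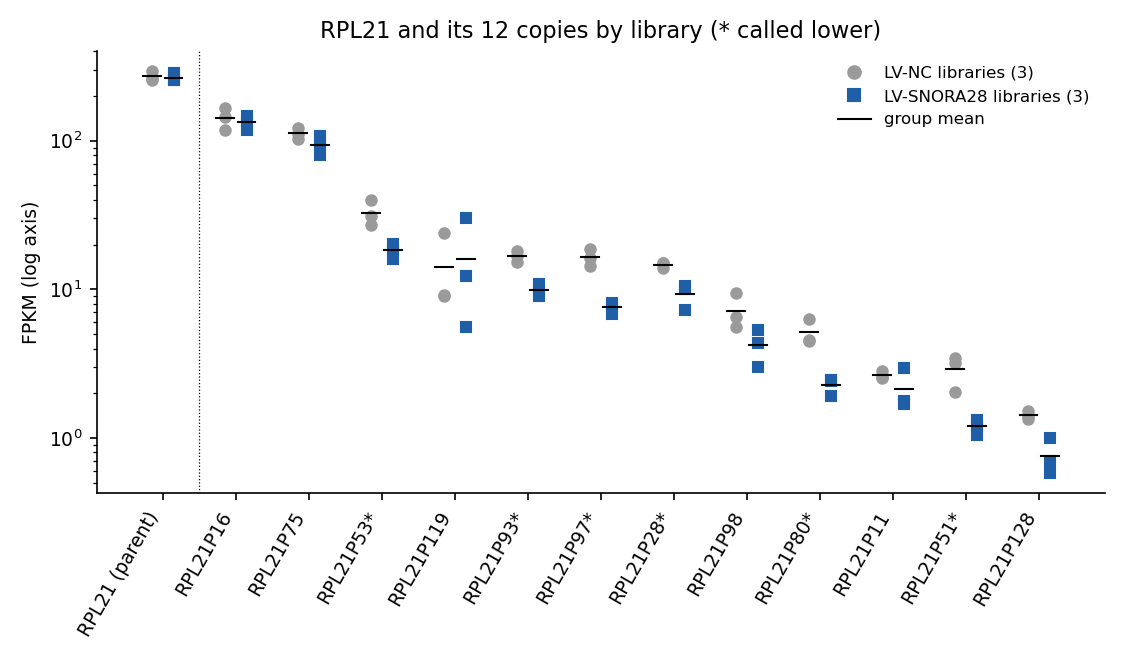
FPKM (y axis, log axis) of RPL21 and its 12 copies, ordered by mean level, in 3 LV-NC libraries (circles) and 3 LV-SNORA28 libraries (squares); black bars are group means and an asterisk marks the 6 copies called lower. RPL21P119 spreads from 5.59 to 30.04 FPKM within LV-SNORA28 alone.

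RPL7A and RPL23A had the next largest families of copies. Of 10 copies of RPL7A, RPL7AP30 fell by 0.81 (adjusted p = 0.0117) and RPL7AP31 by 0.71 (adjusted p = 0.0154) on the log2 scale, none rose, and the range was -0.81 to 0.47. RPL7AP31 reached 1 FPKM only through the LV-NC mean, so its decrease is a description, and it lost its call without LV-NC replicate 2 or LV-SNORA28 replicate 3 (adjusted p up to 0.0593). Of 9 copies of RPL23A, 3 fell and 2 rose, with a range of -1.08 to 0.72. RPL23AP74 had 11.64, 11.61 and 8.17 FPKM in LV-NC and 4.31, 4.85 and 3.94 in LV-SNORA28 (-1.08, SE 0.14, adjusted p = 0.0106). RPL23AP65 had 5.03, 4.12 and 3.36 FPKM in LV-NC and 2.08, 1.28 and 1.54 in LV-SNORA28 (-0.97, SE 0.16, adjusted p = 0.0188). The third, RPL23AP2, fell by 0.48 on the log2 scale (adjusted p = 0.0141), with an adjusted p of up to 0.0636 without LV-SNORA28 replicate 2 or 3. The call of RPL23AP65 was lost without LV-NC replicate 2, LV-SNORA28 replicate 2 or LV-SNORA28 replicate 3, with adjusted p-values of 0.0572, 0.0667 and 0.0723.

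The 2 members that rose were both copies of RPL23A that lie wholly within an exon of another gene on the same strand. RPL23AP82 (chr22:50798655-50799123, plus strand), a transcribed unprocessed pseudogene, is covered by an exon of a long non-coding RNA gene. It had 2.14, 2.11 and 2.07 FPKM in LV-NC and 3.8, 3.61 and 3.8 in LV-SNORA28, a log2 fold change of 0.61 (SE 0.0666, adjusted p = 0.00663). RPL23AP1 (chr6:29726669-29727139, minus strand), a transcribed processed pseudogene, is covered by an exon of HLA-F-AS1, a long non-coding RNA antisense to HLA-F. It had 1.05, 0.52 and 0.71 FPKM in LV-NC and 2.19, 1.94 and 1.54 in LV-SNORA28, a log2 fold change of 0.72 (SE 0.14, adjusted p = 0.0324) that was 1.24 with a pseudocount of 0.1. RPL23AP1 reached 1 FPKM only through the LV-SNORA28 mean, so its increase is a description, and with both groups at 1 FPKM or more only RPL23AP82 was called higher. The call of RPL23AP1 was lost without any library but LV-NC replicate 1, with adjusted p-values from 0.0665 to 0.104. Reads of a copy and of a gene that shares its exon and strand cannot be told apart in these values.

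Of the 8 members with the highest level, RPL41P1 alone was called. RPL7P1 had 436.89, 454.48 and 422.55 FPKM in LV-NC and 456.04, 407.82 and 403.18 in LV-SNORA28 (log2 fold change -0.0539, SE 0.0704, adjusted p = 0.663). RPL3P4, a partial copy of the protein that reaches towards the peptidyl transferase centre, had 401.99, 422.99 and 310.02 FPKM in LV-NC and 362.28, 449.65 and 349.12 in LV-SNORA28 (0.0364, adjusted p = 0.899). RPL36AP37, which is identical to its parent over 321 bases, had 244.32, 259.73 and 236.73 FPKM in LV-NC and 232.51, 242.11 and 222.91 in LV-SNORA28 (-0.0862, adjusted p = 0.423). In these 3 the groups overlapped, as they did for RPL10P16 at 189 FPKM (-0.0328) and RPL7P9 at 164 FPKM (-0.0459). The groups did not overlap for RPL13AP5, with 140.16 to 161.15 FPKM in LV-NC and 124.44 to 132.87 in LV-SNORA28, or for RPL17P7, with 135.5 to 203.76 and 105.53 to 117.54 FPKM. Neither passed the test, with log2 fold changes of -0.23 (adjusted p = 0.0938) and -0.53 (adjusted p = 0.0731). These 8 members held 45.3% to 48.2% of the summed FPKM of the members in each library.

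Each copy was then set against its parent. The level of a copy was 0.157% to 328% of that of its parent, with a median of 2.15%, and 5 copies lay above it: RPL36AP37 at 328%, RPL22P1 at 126%, RPL17P7 at 109%, RPL14P1 at 105% and RPL9P7 at 102%. Of the 35 parents, RPL13A fell by 0.30 (adjusted p = 0.0416), RPL14 rose by 0.25 (adjusted p = 0.0440) on the log2 scale, and 33 were not called. The median fold change of the parents was -0.17. The groups did not overlap for 18 of the 35 parents on the lower side and 2 on the higher side. This compares with 8.16% and 27.0% of all genes tested, and with 55 and 6 of the 112 members. The calls of RPL13A and RPL14 were lost whichever of the 6 libraries was left out, with adjusted p-values from 0.0518 to 0.135 for RPL13A and from 0.0784 to 0.148 for RPL14. Among 51 large-subunit protein genes as a whole, 3 fell (5.88%) and 2 rose (3.92%), against 2.10% and 6.81% of all genes tested. Their median was -0.15, and the groups did not overlap for 25 on the lower side and 3 on the higher side.

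The ratio of a copy to its parent was tested by limma on log2(copy + 1) minus log2(parent + 1), over 487 pseudogenes with an expressed protein-coding parent. Of the 112 members, 16 ratios were lower in LV-SNORA28 and 2 were higher, against 8.21% lower and 1.44% higher over all 487 pairs. The 375 pairs that were not members had 24 lower and 5 higher. The median difference of the log2 ratio was -0.18 for members, -0.13 for the other pairs and -0.14 for all. All 16 members with a lower ratio had also fallen by themselves, and all 34 members that fell had a lower fold change than their parent. The ratio uses the copy's own value, and the 34 were called on a low fold change, none above -0.33. The median of the parents was -0.17. Both statements therefore follow largely from the shared values and the choice, and are descriptions. Without any 1 library, 0 or 1 member ratio was lower and 0 were higher, so these calls rest on all 6 libraries: 1 was lower without LV-SNORA28 replicate 2, and 0 without each of the other 5.

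RPL14P1 was lower in LV-SNORA28 where its parent was higher. It had 72.41, 77.55 and 68.93 FPKM in LV-NC and 53.99, 56.47 and 51.13 in LV-SNORA28, a log2 fold change of -0.43 (SE 0.0688, adjusted p = 0.0179). The adjusted p reached 0.0700 without LV-NC replicate 2 or any LV-SNORA28 library. RPL14 had 54.19, 56.98 and 54.12 FPKM in LV-NC and 64.01, 68.04 and 64.67 in LV-SNORA28. The copy was therefore at 127% to 136% of its parent in LV-NC and at 79.1% to 84.3% in LV-SNORA28, with a log2 ratio lower by 0.68 (SE 0.10, adjusted p = 0.0248 in limma). For RPL39P15 the ratio fell by 1.18 (adjusted p = 0.0248), from 24.2% to 31.4% of RPL39 in LV-NC to 10.8% to 14.9% in LV-SNORA28. For RPL41P1 the ratio fell by 0.70 (adjusted p = 0.0378), and for RPL41P5 the difference of -1.44 did not pass the test (adjusted p = 0.0562). RPL23AP82 and RPL23AP1 had the 2 higher ratios, by 0.78 (adjusted p = 0.0248) and 0.89 (adjusted p = 0.0259). In all, 5 members fell while the fold change of their parent was above 0.

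**Figure D4:**
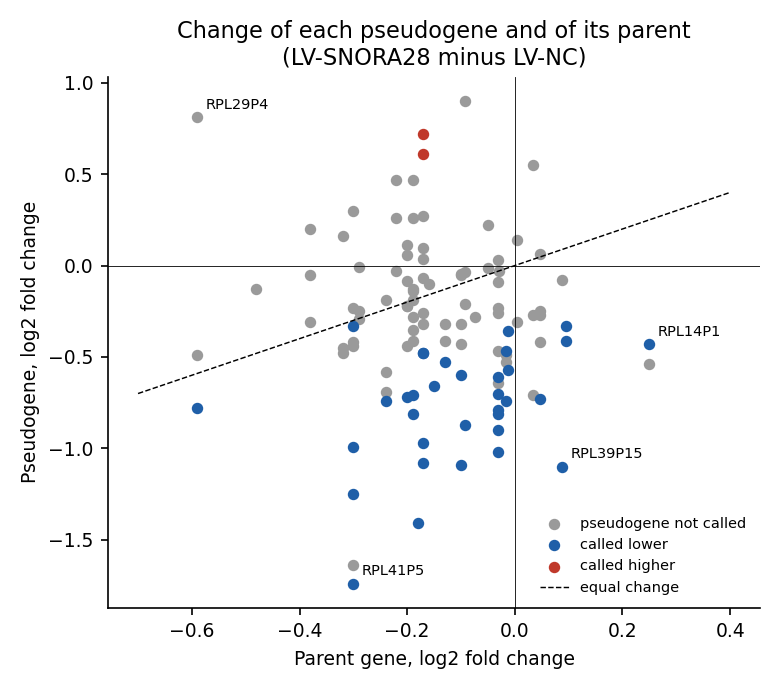
Log2 fold change of each of the 112 pseudogenes (y axis) against that of its parent gene (x axis), LV-SNORA28 minus LV-NC, on log2(FPKM + 1); copies of one parent share an x value and the dashed line marks equal change. All 34 called lower lie below the dashed line, largely because they were called on a low fold change. RPL14P1 sits at -0.43 where RPL14 is at 0.25.

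Members were grouped by where they lie and by how close they are to the parent, as descriptions. Of 49 members that overlapped no other annotated gene, 19 fell (38.8%), and of 33 that overlapped a gene on the opposite strand only, 12 fell (36.4%). Of 19 that overlapped a gene on the same strand without shared exon bases (labelled same-strand intron in the figure), 3 fell, RPL41P5, RPL23AP74 and RPL10P6. Of 11 that shared exon bases with a gene on the same strand, none was called lower and 2 rose, and their median fold change was 0.0636 against -0.43 for those that overlapped no gene. The libraries were stranded per the labels, but whether counting used the strand is not given in the sources used here, so reads of a copy and of an opposite gene may not be separate.

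By identity, none of the 12 members under 90% was called, 6 of 19 from 90% to under 95% fell and 2 rose, 21 of 58 from 95% to under 99% fell, and 7 of 23 with at least 99% fell. The lowest identity over aligned bases among the members that fell was 93.2%. RPL12P38, which also fell, had 94.8% identity, but only 26.9% of its bases aligned and 5.11% of its windows occurred in the parent. Of the 14 members without any 50-base window of the parent, none was called lower and 1 rose, and their median fold change was 0.13. Of the 63 with some but under 50% of their windows in the parent, 23 fell, and of the 35 with 50% or more, 11 fell. The groups by place and by identity share members and were not tested against each other.

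**Figure D5:**
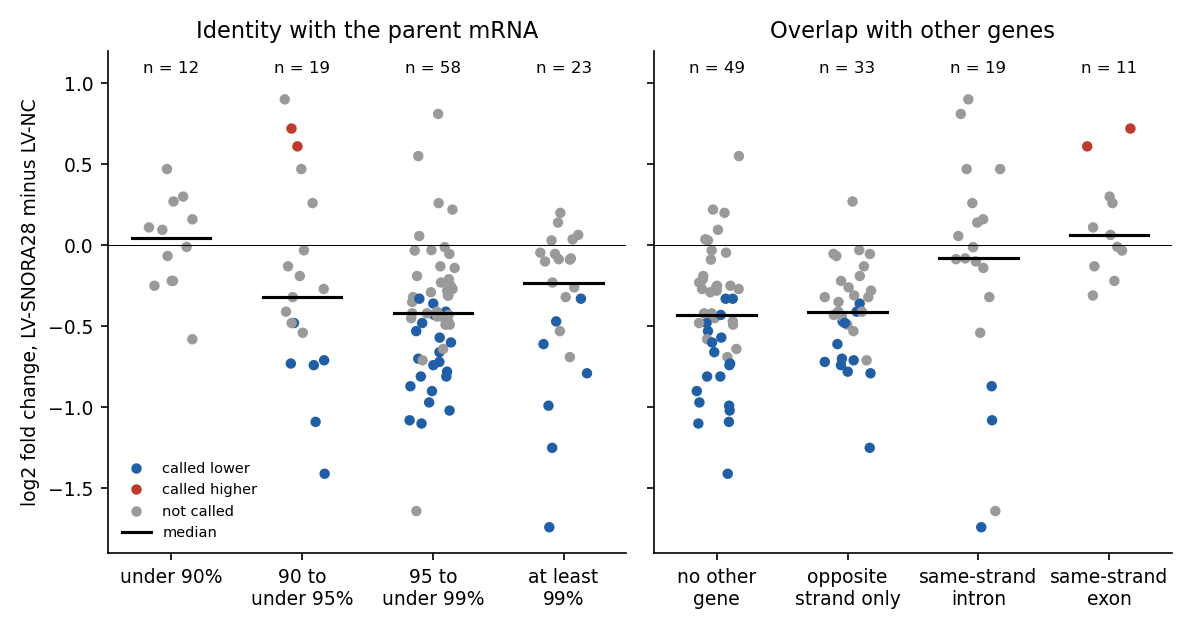
Log2 fold change of the members (y axis, LV-SNORA28 minus LV-NC) by identity with the parent message (left) and by overlap with other genes (right); each point is a pseudogene with a small horizontal jitter, and black bars are medians. Called decreases begin at the class from 90% to under 95%, and none falls in the same-strand exon class.

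Across members, level and identity went together, with a Spearman rho of 0.78 over 112 members, which share libraries and, within a family, sequence. The fold change of a member had a rho of 0.00180 with its level, -0.15 with its identity and -0.11 with the fold change of its parent. Of the 12 members with a transcribed biotype 1 fell and 2 rose, and of the 7 with more than 1 exon none was called.

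The FPKM of the members summed to 4545 ± 215 with LV-NC and to 3904 ± 172 with LV-SNORA28 (SD, n = 3 each). That of the 35 parents was 10072 ± 377 and 8983 ± 218 (SD, n = 3 each). The members thus stood at 45.1% ± 1.19 of their parents in LV-NC and 43.4% ± 1.01 in LV-SNORA28, and these ranges overlapped. The sum over all genes was also lower, at 349575 FPKM on average with LV-NC and 315045 with LV-SNORA28. The members held 1.30% and 1.24% of all FPKM, where the libraries of the groups overlapped. Of the FPKM of genes that are not mitochondrially encoded, they held 2.34% and 1.98%, where the groups did not overlap. Per library, 107 to 110 members had at least 1 FPKM in LV-NC and 102 to 105 in LV-SNORA28.

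Some members varied more within a group than between groups. RPL13AP7 had 12.21, 0.09 and 8.19 FPKM in LV-NC and 0.06, 0.04 and 2.95 in LV-SNORA28. RPL21P119 had 9.05, 23.92 and 9.22 FPKM in LV-NC and 30.04, 5.59 and 12.31 in LV-SNORA28. Neither was called, and high and low libraries occurred in both groups. RPL29P4 had 75.67, 64.68 and 56.67 FPKM in LV-NC and 64.84, 146.6 and 159.93 in LV-SNORA28, high in 2 of 3 libraries (log2 fold change 0.81, adjusted p = 0.177). Its parent RPL29 had 215.69, 431.15 and 203.23 FPKM in LV-NC and 166.12 to 189.57 in LV-SNORA28, where LV-NC replicate 2 stood apart.

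Other pseudogenes were counted in the same fit for comparison. Of 56 copies of small-subunit ribosomal protein genes 21 fell (37.5%) and none rose (median -0.44), and all 8 copies of EEF1A1, the translation elongation factor, fell (median -1.21). Of 560 other pseudogenes, 35 fell (6.25%) and 12 rose (2.14%), with a median of -0.00555. Beside these, 30.4% of the members and 2.10% of all genes tested fell, and 1.79% and 6.81% rose.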

How the data were processed

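RNA sequencing of 6 HCT116 libraries, LV-NC 1 to 3 and LV-SNORA28 1 to 3, was used; titles gave the groups. For each library the authors deposited FPKM values of 60612 genes. The submitters' processing notes name cutadapt 1.9, HISAT2 2.2.1, StringTie 2.1.6, DESeq2, edgeR and hg38, without roles; the annotation release is not given in the sources used here. Symbols, biotypes and positions came from GENCODE 44. After transformation to log2(FPKM + 1), 12076 genes averaging 1 FPKM or more were fitted with limma 3.58.1 (R 4.3.3; lmFit, eBayes with trend, two-sided, Benjamini-Hochberg), checked on simulated data. The parent was the symbol before the final P and number. Identity is from blastn 2.17.0+ against the canonical parent transcript, over the aligned bases. Named members were the 12 called with the largest change in each direction, the 8 highest by level, those of the 3 largest families and the 3 on each side of the minimum, with their parents. Members and lists were chosen with earlier results of these data known. Alternatives covered the variance trend, scaling, filter, pseudocount, replicate number, GC and length trends and each library left out.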

Additional observations from a re-analysis of the deposited data

How the results depend on the processing

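Apart from the fit without a filter, the alternatives that kept the 6 libraries and all 112 members gave 23 to 37 decreases, against 34 reported. Without a filter, 11 members were lower and 1 higher of 112. That fit held 32761 genes, and the reason for the smaller number was not tested. With a mean of at least 5 FPKM, 27 of 64 members were lower (42.2%), against 3.48% of all genes in that fit. Leaving out 1 library gave 10 to 21 lower and 1 to 2 higher, against 0.729% to 1.13% and 1.58% to 4.07% of all genes. Lower calls among all genes moved as well, from 2.10% to 3.11% under quantile normalization and 0.278% without a filter. No member called under any alternative had the opposite sign in the reported fit. The higher calls numbered 0 at a minimum mean of 5 FPKM or among members overlapping no gene on the same strand, and 1 with the GC trend removed or with both groups at 1 FPKM or more; the cause was not tested. At the threshold of the study, 27 members were lower and 4 higher in the reported fit. With a pseudocount of 0.1 these were 34 and 6, under quantile normalization 32 and 2, and with the GC trend removed 34 and 2. Of the 64 members with a mean of at least 5 FPKM, 18 were lower and 1 higher. Leaving out 1 library gave 26 to 31 lower and 3 to 5 higher. The share of all genes at this threshold, 1.22% lower and 2.58% higher, is given for the reported fit only.

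The median fold change of the members was -0.40 under quantile normalization and with the GC trend removed, -0.38 with a pseudocount of 0.1, -0.42 among members overlapping no gene on the same strand, and -0.37 to -0.29 without 1 library. Lower ratios to the parent numbered 16 in the reported fit, 25 under quantile normalization and 0 to 1 without 1 library. Higher ratios numbered 2 in the reported fit, 4 with the length trend removed, 0 with a mean of at least 5 FPKM and 0 without any 1 library. The share over all pairs, 8.21% lower and 1.44% higher, is given for the reported fit only. Whether the other counts are particular to the members was therefore not tested. Parents called lower numbered 0 without the variance trend and without a filter, 2 under quantile normalization and GC removal, 4 with the length trend removed and 0 to 1 without 1 library. Parents called higher numbered 0 in each of these settings, with nuclear scaling and without any 1 library.

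Replicate numbers showed no clear pairing of the libraries: the correlations of deviations between LV-NC and LV-SNORA28 were -0.0441, 0.0914 and 0.00983 for numbers 1, 2 and 3. With so few libraries a group, these values cannot exclude that libraries were paired. With the replicate block, 23 members were lower and 1 higher, against 1.09% and 3.13% of all genes in that fit. Of these 24 calls, 22 were among the reported calls, and the ratio to the parent gave 0 lower and 0 higher. The block also left 0 parents higher.

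Under these alternatives the sign turned for 18 of the 112 members and for 0 of the 36 called. Among those named for their level, it turned for RPL7P1 (0.0104) and RPL10P16 (0.0435) under quantile normalization, RPL3P4 (-0.0341) with the GC trend removed, and, without 1 library, RPL10P16 (-0.0880 to 0.0401), RPL3P4 (-0.10 to 0.12) and RPL7P9 (-0.16 to 0.0245). Among the named calls with all 6 libraries, RPL23P8 (adjusted p = 0.0552), RPL23AP65 (0.0605), RPL10P6 (0.0798), RPL21P51 (0.0911) and RPL23AP1 (0.0982) were lost without a filter, RPL21P51 (0.0648) and RPL23AP1 (0.0519) with the replicate block, and RPL23AP1 (0.0504) with the GC trend removed. Depth is unknown, and values near 1 FPKM are limited by the spread between 3 libraries.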
